A study of Mus musculus with 2 samples.

Results

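The T cell receptor loci are the windows of the mouse genome that hold the gene segments of the beta chain (Tcrb), the gamma chain (Tcrg), the alpha chain (Tcra) and the delta chain (Tcrd). Their members here are the accessible regions, or peaks, whose centre lies in fixed windows of the mm9 genome, whatever their score. The windows are chromosome 6 from 40800001 to 41600000 for Tcrb, chromosome 13 from 19200001 to 19500000 for Tcrg, and chromosome 14 from 53000001 to 54900000 for Tcra and Tcrd, which share a locus. They held 178 of the 69896 peaks of an E2A and HEB double-knockout library and 198 of the 85764 peaks of a wild-type library. Both libraries are ATAC-seq, an assay that marks open chromatin by where a transposase can reach the DNA, of early thymic progenitors (ETPs) sorted from fetal thymus of C57BL/6 mice. The double-knockout cells carried E2A and HEB, both E protein genes, as floxed alleles with IL7R-Cre (E2Afl/flHEBfl/flIL7RCre), a Cre driven by the gene of the interleukin-7 receptor, and were sorted as CD4-CD8-Lin-CD44+CD25-ckit+YFP+. The wild-type cells were sorted by the same surface markers without YFP. Fetal age is not stated in the labels. The IL7R-Cre line deletes only in cells that have expressed it, and YFP was an additional gate on the double-knockout cells alone. With 1 library per genotype, differences have no replicate check, no test between genotypes was made, and fewer cells with an open site cannot be told apart from a less open site in each cell. Loss of E2A and HEB and the identity of the sorted cells were not checked here, and the peaks carry no gene names.

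T cell receptor genes are assembled in developing thymocytes by the RAG recombinase, which joins variable (V), diversity (D) and joining (J) segments next to a constant (C) gene. Tcrb and Tcrd use V, D and J segments, and Tcra and Tcrg use V and J segments. RAG works only on accessible segments, and each locus has an enhancer near its constant genes that opens the joining segments and drives transcription. E proteins bind E-box sequences as dimers of the helix-loop-helix type, and they are known for their part in opening and rearranging these loci in early thymocytes. ETPs are the most immature of these cells and precede most of this rearrangement.

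Each window was divided into sections at round distances from its right edge, which follow the known arrangement of the loci only approximately, since no mm9 annotation was at hand. Gene names below come from a table of another build (GRCm38) and give the order of genes within a locus. They belong to a section and not to a single peak. In Tcrb the table lists 35 Trbv segments, of which 13 are pseudogenes, then 8 protein-coding genes, mostly of the trypsinogen family of digestive proteases, between Trbv30 and Trbd1, and then 2 Trbd, 14 Trbj and 2 Trbc segments. Trbv31 follows the last constant gene, Trbc2, and Ephb6, a gene of the Eph receptor family, follows Trbv31. In Tcrg the order is Trgv7, Trgv4, Trgv6 and Trgv5, then Trgj1 and Trgc1, then cassettes around Trgc3, Trgc2 and Trgc4, then Stard3nl, a gene outside the receptor family. The alpha and delta locus has 130 Trav and 6 Trdv segments, and all but Trdv5 precede the 2 Trdd and 2 Trdj segments and Trdc. Trdv5 follows Trdc, and then come 60 Traj segments, Trac and the neighbouring gene Dad1.

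The loci as a whole were richer in accessible regions than the genome in both libraries, and most of their regions were called in both. Over the 3000 kb of the windows there were 5.93 double-knockout and 6.60 wild-type peaks per 100 kb, against 2.71 double-knockout and 3.33 wild-type peaks over all chromosomes. The Tcra and Tcrd window was flanked by equally long stretches that were also rich in peaks, with 4.84 double-knockout and 5.68 wild-type peaks per 100 kb on its left and 7.05 double-knockout and 7.47 wild-type peaks on its right. For Tcrb the flanking stretches held 2.50 double-knockout and 3.75 wild-type peaks per 100 kb on the left and 2.75 double-knockout and 4.25 wild-type peaks on the right, below the 5.50 and 6.63 peaks of these libraries within the window. For Tcrg the left stretch held 1 peak per 100 kb in both libraries and the right 1.33 double-knockout and 4.33 wild-type peaks, below the 8 double-knockout and 9 wild-type peaks within.

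A peak counted as shared if at least 1 bp of it lay in a peak of the other library. The shared part of the double-knockout peaks was 79.5% at Tcrb (35 of 44, exact 95% interval 64.7 to 90.2%), 70.8% at Tcrg (17 of 24, 48.9 to 87.4%) and 79.1% at Tcra and Tcrd (87 of 110, 70.3 to 86.3%). The shared part of the wild-type peaks was 66.0% at Tcrb (35 of 53, 51.7 to 78.5%), 63.0% at Tcrg (17 of 27, 42.4 to 80.6%) and 73.7% at Tcra and Tcrd (87 of 118, 64.8 to 81.4%). Over the whole lists 25.3% of the double-knockout and 39.1% of the wild-type peaks had no overlapping partner, so that 74.7% of the double-knockout and 60.9% of the wild-type peaks were shared. Only the wild-type share at Tcra and Tcrd had an interval that left out the value of its whole list. The equally long stretches beside this window had similar wild-type shares, 72.2% on the left and 75.35% on the right, so the share was not particular to the window. When both lists were limited to their upper 50% by score, the shared part of the wild-type peaks was 57.1% at Tcra and Tcrd and 42.9% at Tcrb. No whole-list share under that limit is given, so these values cannot be set against the 60.9%. These Clopper-Pearson intervals hold for counting error alone and take each peak as independent of its neighbours, which it is not. The numbers of peaks in the libraries stood at 0.830 double-knockout peaks per wild-type peak at Tcrb (0.544 to 1.26), 0.889 at Tcrg (0.491 to 1.60) and 0.932 at Tcra and Tcrd (0.712 to 1.22), and all of these intervals included the 0.815 of the whole lists. The ratio passed to the other side of 1 at 2 of the 3 windows under another list length or score limit. With both lists at their upper 50%, Tcrg had 15 double-knockout and 10 wild-type peaks (ratio 1.5). Under the same limit the ratio fell at Tcrb, with 16 double-knockout and 28 wild-type peaks (ratio 0.571). At equal list lengths, Tcra and Tcrd had 110 double-knockout and 93 wild-type peaks (ratio 1.18). Equal lengths bring the ratio of the whole lists from 0.815 to 1 by construction, so a rise at a window is partly built in.

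**Figure D1:**
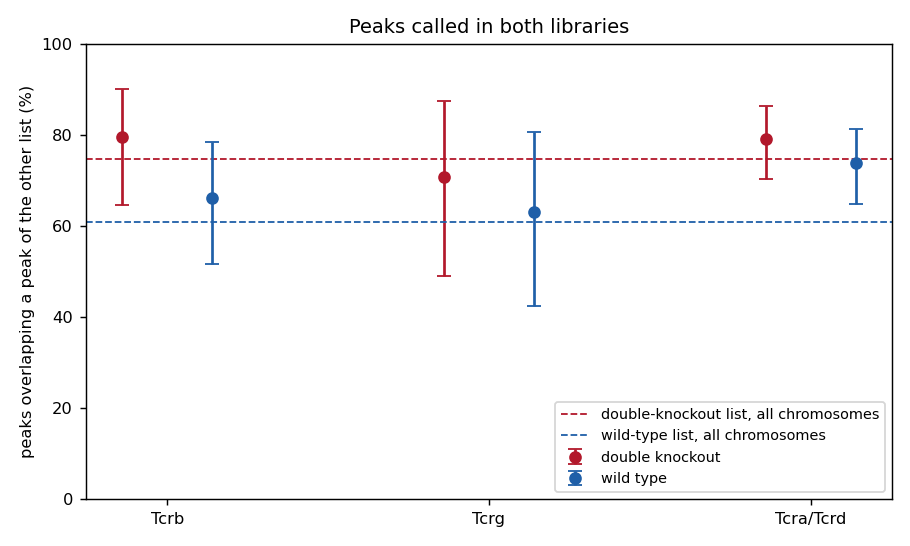
Share of the peaks of each library that overlap a peak of the other library (%, vertical axis) at the 3 loci, double knockout on the left of each pair and wild type on the right, with exact 95% intervals as bars. Dashed lines mark the whole lists, 74.7% in the double knockout and 60.9% in the wild type, and only the wild-type interval at Tcra and Tcrd lies off its line.

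The strength of a region is given as the percentile of its score within its own list. The authors' score has no stated unit and is not compared between lists. Percentile 90 corresponds to a score of 34.3 in the double knockout and 27.5 in the wild type. In the variable sections of all loci together, the median percentile was 36.1 for 133 double-knockout peaks and 39.5 for 149 wild-type peaks, both below the 50 of a whole list. Most of these peaks, 96 in the double knockout and 108 in the wild type, were of Tcra and Tcrd, with a median percentile of 36.1 in the double knockout and 34.8 in the wild type. The variable section of Tcrb had a median of 33.4 in the double knockout and 51.5 in the wild type, and the first V genes of Tcrg had 84.7 over 3 double-knockout and 49.5 over 5 wild-type peaks. Of all these variable-section peaks, 1 in each library, the same region, was among the strongest 10% of its list. The joining ends, a total of 160 kb, held 15 double-knockout and 12 wild-type peaks. Their median percentile was 51.5 in the double knockout and 78.6 in the wild type. Of them, 5 double-knockout and 4 wild-type peaks were among the strongest 10%. At Tcrb there were 3 of these in each library, and the alpha section held 2 in the double knockout and 1 in the wild type. The delta section and the first joining section of Tcrg held none. The flanking sections held 22 peaks in each library, of which 4 in each were among the strongest 10%. By its definition this class takes in 10% of each whole list.

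At Tcrb, the section of the D, J and C segments with their enhancer held 3 regions called in both genotypes. Among them was the highest percentile of any peak of the windows in each list. This section of 30 kb held 3 double-knockout and 4 wild-type peaks. The leftmost region, at 41482916 to 41483066 in the double knockout and 41482914 to 41483064 in the wild type, stood at percentile 98.6 of the double-knockout list and 96.4 of the wild-type list, with scores of 72.2 in the double knockout and 45.0 in the wild type. The next, at 41491797 to 41491947 in both lists, stood at percentile 95.6 in the double knockout and 96.0 in the wild type. The rightmost, at 41504717 to 41504867 in the double knockout and 41504704 to 41504854 in the wild type, stood at percentile 97.8 in the double knockout and 99.3 in the wild type. Another site (41494685 to 41494835) was a peak in the wild type alone, at percentile 84.9 with a score of 21.0, and the nearest double-knockout peak was 2737 bp away. It was the strongest region of the Tcrb window without a partner.

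The stretch of trypsinogen genes between the variable part and the D segments differed between the lists. It held 0 double-knockout and 7 wild-type peaks over 240 kb. None of the 7 had a double-knockout partner, which allows a shared part of up to 41.0% (exact upper limit). The 7 lay between 41267590 and 41468331, at percentiles from 6.84 to 79.3 with a median of 28.6. The strongest of them, at 41468181 to 41468331 with a score of 16.8, was also the one nearest to the D, J, C and enhancer section. The other 6 had scores of 3.50 to 6.46, and the longest stretch without a peak at Tcrb in the double knockout therefore ran over 260.5 kb, between 41222375 and 41482915. Over the genome, 32.7% of wild-type peaks had no double-knockout peak within 500 bp, against all 7 here. The 32.7% covers peaks of every strength. No share for peaks of like strength is given, so the contrast may in part reflect how weak most of the 7 were, which was not tested. With boundaries moved 10 kb to the right, the stretch takes in the leftmost region of the D, J, C and enhancer section in both libraries. The double-knockout count then becomes 1.

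The Tcrb variable section held 34 double-knockout and 36 wild-type peaks over 440 kb, or 7.73 and 8.18 per 100 kb, and 28 of them were shared. The leftmost region was the strongest. It stood at percentile 94.97 in the double knockout (40841140 to 40841290) and 98.8 in the wild type (40841137 to 40841287), far from the others: the next peaks to its right were 1 double-knockout peak without a partner (40843662 to 40843812, percentile 73.0) and then, in both lists, one at 40965187. Trbv1 is the leftmost V segment of the table, with genes of other families between it and Trbv2, but the region was not assigned to it. Among the wild-type peaks of the section without a partner, the strongest 2 were at 41041558 to 41041708 (percentile 74.7), with a double-knockout peak 161 bp away, and at 41168523 to 41168673 (percentile 71.8), with none within 1.9 kb. Of the other double-knockout peaks without a partner in the Tcrb window, the strongest was in the right flank (41513212 to 41513362, percentile 64.3), 20 bp from a wild-type peak, and the next at 41054132 to 41054282 (percentile 41.8).

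**Figure D2:**
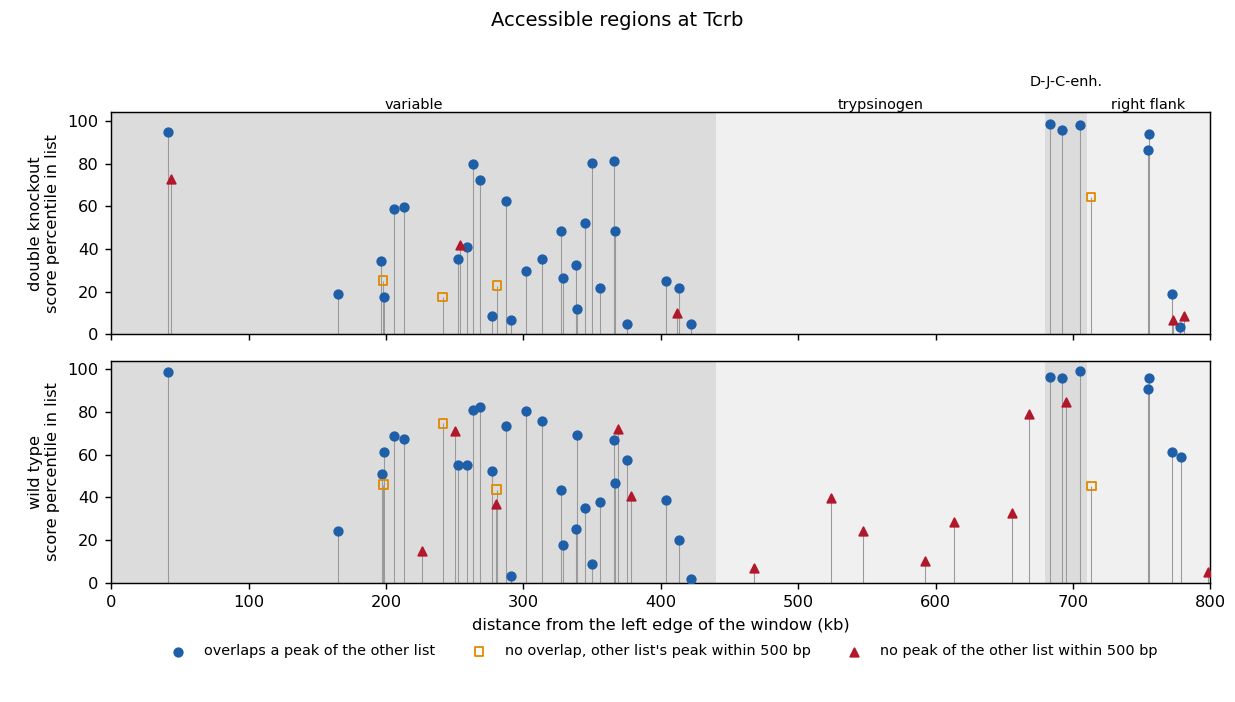
Peaks along the Tcrb window (horizontal axis, distance from its left edge in kb), by the percentile of their score in their own list (vertical axis), in the double knockout (top) and the wild type (bottom), with shading for the sections. The 7 wild-type peaks of the trypsinogen stretch have no double-knockout counterpart, while the D, J, C and enhancer section holds regions above percentile 95 in both.

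To set the strength of shared regions side by side on lists of equal length, each list was limited to its shared peaks, 52206 in both, and ranked in percentile points from 0 to 100. Over all of these pairs, the double knockout minus the wild type had a median of 0.55 points and quartiles of -7.62 and 9.25, and 11.3% of the pairs ranked over 20 points higher and 12% over 20 points lower in the double knockout. The limit of 20 points was chosen after the values were seen. A region near the top or bottom of the ranks cannot move far towards that end, and for pairs whose mean rank lay between 20 and 80 the shares were 15.5% higher and 16.8% lower.

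At Tcrb, 3 of the 35 shared regions ranked over 20 points higher in the double knockout and 8 over 20 points lower, or 8.57% (1.80 to 23.1%) higher and 22.9% (10.4 to 40.1%) lower. Both intervals included the shares over all pairs, 11.3% higher and 12% lower. Among the 22 of middle rank, the shares were 13.6% higher and 36.4% lower, beside 15.5% higher and 16.8% lower over all such pairs. These middle-rank shares are given without intervals. Of the 11 regions over 20 points apart, 9 were in the variable section and 2 in the right flank. The variable section had a median of -4.35 points, with 12 regions ranked higher and 16 lower. Over all pairs the median was 0.55 points, and 53.1% ranked higher in the double knockout. The largest displacements downwards were at 41139064 to 41139214 (percentile 11.6 of the double-knockout list and 69.3 of the wild-type list, -48.8 points) and at 41102235 to 41102385 (percentile 29.6 of the double-knockout list and 80.6 of the wild-type list, -48.4 points). Both stood in the upper part of the wild-type list and the lower part of the double-knockout list. The largest in the other direction was at 41149985 to 41150135, at percentile 80.2 in the double knockout and 8.51 in the wild type, a difference of 72.7 points. These regions lie within 50 kb of each other, so that differences of rank in both directions lay close together. The 3 shared regions of the D, J, C and enhancer section differed by -1.71 to 3.84 points.

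The right flank of Tcrb, toward Ephb6 in the order of the table, held 2 strong shared regions side by side. The left stood at percentile 86.5 in the double knockout and 90.7 in the wild type (41554431 to 41554581 and 41554430 to 41554580), and the right at percentile 93.9 in the double knockout and 95.9 in the wild type (41555330 to 41555480 and 41555349 to 41555499). Further right, a pair of shared regions ranked lower in the double knockout, at percentile 18.9 in the double knockout against 61.0 in the wild type (41571685 to 41571835 in the double knockout, -33.0 points) and 3.20 in the double knockout against 59.0 in the wild type (41578261 to 41578411 in the double knockout, -42.4 points).

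At Tcra and Tcrd the shared regions were shifted to higher ranks in the double knockout. Of 87 shared regions, 25 ranked over 20 points higher in the double knockout and 5 over 20 points lower, or 28.7% (19.5 to 39.4%) higher and 5.75% (1.89 to 12.9%) lower, beside 11.3% higher and 12% lower over all pairs. The median difference was 8.40 points, with 57 regions ranked higher and 30 lower, where 53.1% of all pairs ranked higher. Among the 62 of middle rank, the shares were 33.9% higher and 6.45% lower, beside 15.5% higher and 16.8% lower. The variable section of 1740 kb accounted for 80 of the 87 regions, for 23 of the 25 and for all 5 of those ranked lower. These intervals hold for counting error alone and take each region as independent of its neighbours, which it is not. Whether Tcra and Tcrd differed from Tcrb in these ranks was not tested.

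**Figure D3:**
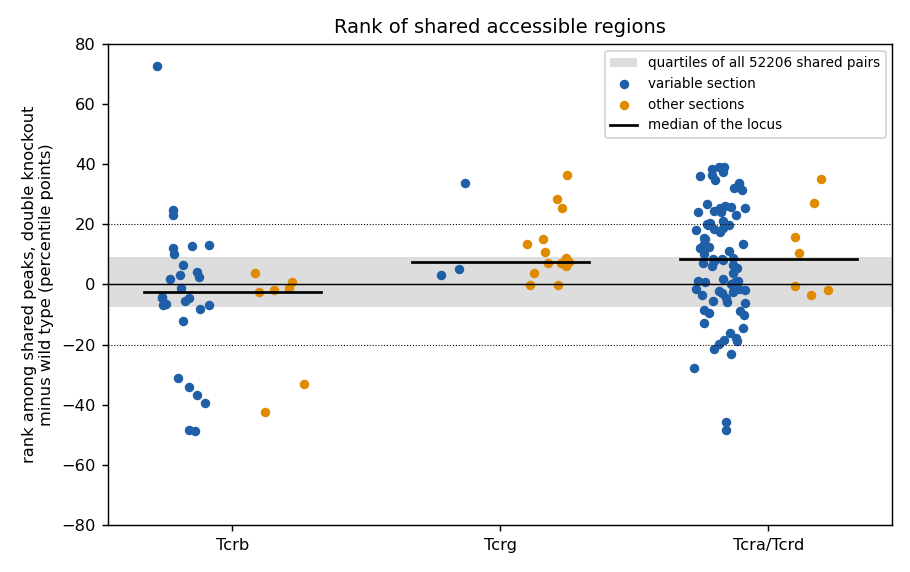
Difference in rank between the double knockout and the wild type for the shared regions of each locus (vertical axis, percentile points among the 52206 shared pairs, positive where the double knockout ranks higher), with variable sections in blue and other sections in orange. Grey marks the quartiles of all pairs (-7.62 and 9.25), dotted lines mark 20 points, and the locus medians are -2.40 at Tcrb, 7.58 at Tcrg and 8.40 at Tcra and Tcrd.

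Within the alpha and delta variable section, the double knockout had 96 peaks and the wild type 108, or 5.52 and 6.21 per 100 kb. The leftmost 200 kb held a surplus of 9 wild-type peaks. In this stretch, the end at which the table lists Trav1 among olfactory receptor genes, there were 2 double-knockout and 11 wild-type peaks. Both double-knockout peaks there were shared, and 9 of the 11 wild-type peaks were not. Over the whole wild-type list, which takes in peaks of every strength, 39.1% had no overlapping partner. A run of 6 of the 9, from 53081728 to 53186856, had no double-knockout peak among them over 105.1 kb. Their percentiles ranged from 8.51 to 70.3. The strongest wild-type peak of the section without a partner, at 53009976 to 53010126 (percentile 73.8), lay further left, 37281 bp from the nearest double-knockout peak. The next outside this run was at 54524259 to 54524409 (percentile 50.2). The strongest double-knockout peaks of the section without a partner were at 53957183 to 53957333 (percentile 60.6), 347 bp from a wild-type peak, at 54060830 to 54060980 (percentile 48.6) and at 53361867 to 53362017 (percentile 38.7).

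Further to the right most peaks were shared. From 53600001 to 54200000 there were 43 double-knockout and 41 wild-type peaks, of which 36 were shared, and 10 of these 36 ranked over 20 points higher in the double knockout and none over 20 points lower. From 54200001 to the edge of the delta D, J and C section at 54740000 there were 37 double-knockout and 43 wild-type peaks. Of these, 33 were shared, of which 11 ranked over 20 points higher in the double knockout and 3 over 20 points lower. Over all shared pairs, 11.3% ranked over 20 points higher in the double knockout and 12% over 20 points lower. Both libraries had the same long stretch without peaks, 151.3 kb from 53430548 in the double knockout and 151.5 kb from 53430553 in the wild type.

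The strongest double-knockout peak of the variable section, at 54694480 to 54694630, was near its right end. It stood at percentile 89.5 in the double knockout and 64.1 in the wild type, 36.5 points higher in rank in the double knockout. The next were at 53258595 to 53258745 (percentile 81.6 in the double knockout and 57.5 in the wild type) and 54414944 to 54415094 (percentile 81.1 in the double knockout and 66.2 in the wild type), also shared and ranked higher in the double knockout by 34.8 and 24.1 points. The strongest wild-type peaks were at 53070967 to 53071117, at percentile 75.5 in the double knockout and 86.9 in the wild type, at 53692262 to 53692412 (percentile 75.7 in the double knockout and 82.7 in the wild type), and at 53692936 to 53693086 (percentile 75.3 in the double knockout and 81.1 in the wild type). In rank these 3 differed by -9.58, -3.42 and -1.69 points. In the opposite direction, the region at 54730790 to 54730940, the rightmost of the variable section, stood at percentile 20.2 in the double knockout and 72.4 in the wild type, a difference of -45.9 points. The region at 53320661 to 53320811 stood at percentile 0.75 in the double knockout and 62.8 in the wild type (-48.4 points).

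The delta D, J and C section of 30 kb held 4 double-knockout and 2 wild-type peaks. The strongest double-knockout peak, at 54758084 to 54758234, was shared, at percentile 81.8 in the double knockout and 57.5 in the wild type, and ranked 35.0 points higher in the double knockout. The regions at 54741754 to 54741904 in the double knockout (percentile 51.5) and 54741509 to 54741659 in the wild type (percentile 55.2) did not overlap but lay 94 bp apart. A pair of weak peaks at 54766257 to 54766407 and 54767312 to 54767462 (percentiles 17.5 and 13.2) had no wild-type peak within 5 kb.

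The alpha J, C and enhancer section of 80 kb held 6 double-knockout and 3 wild-type peaks. Its strongest region was at 54847275 to 54847425 in the double knockout and 54847106 to 54847256 in the wild type, at percentile 97.6 of both lists. The peaks missed each other by 18 bp, so the 1 bp rule counts them as library-only in both lists, although no other peak lay between them. A second strong region, at 54842232 to 54842382 in the double knockout and 54842237 to 54842387 in the wild type, was shared, at percentile 90.2 in the double knockout and 72.4 in the wild type, and ranked 27.0 points higher in the double knockout. The region nearest to the delta section, at 54772621 to 54772771 in the double knockout, was shared as well. It stood at percentile 44.8 in the double knockout and 36.8 in the wild type. Between these regions the double knockout had 3 peaks with no wild-type peak within 10 kb (54783546 to 54783696, 54795269 to 54795419 and 54824061 to 54824211), at percentiles 11.6, 16.1 and 3.20, and the wild type had none. All 3 were weak. Of all double-knockout peaks, of every strength, 16.4% had no wild-type peak within 500 bp, and no share at 10 kb is given.

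The right flank of the window, toward Dad1 in the order of the table, held 4 double-knockout and 5 wild-type peaks, and all 4 were shared. The strongest stood at percentile 97.7 in the double knockout (54873612 to 54873762) and 98.5 in the wild type (54873618 to 54873768). The region next to the alpha section stood at percentile 77.9 in the double knockout (54853037 to 54853187) and 84.5 in the wild type. In rank these differed by -0.64 and -3.47 points.

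**Figure D4:**
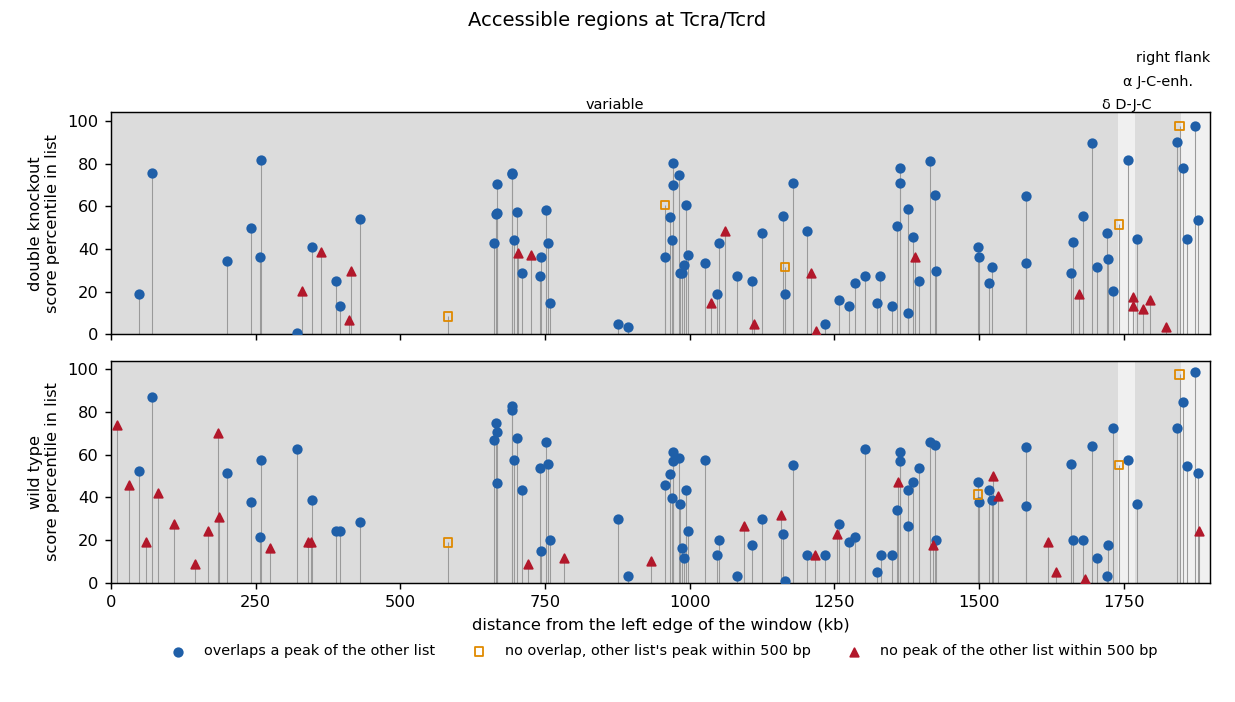
Peaks along the Tcra and Tcrd window (horizontal axis, distance from its left edge in kb), by the percentile of their score in their own list (vertical axis), in the double knockout (top) and the wild type (bottom), with shading for the sections. In the leftmost 200 kb there are 2 double-knockout and 11 wild-type peaks, and at the right end the regions at percentile 97.6 lie 18 bp apart.

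At Tcrg the gene segments form several V-J-C cassettes, so that V and C genes alternate along the locus. The V genes of the first cassette, Trgv7, Trgv4, Trgv6 and Trgv5, lie in a section with 3 double-knockout and 5 wild-type peaks over 40 kb. The 3 double-knockout peaks were all shared. They stood at percentile 84.7 in the double knockout and 83.9 in the wild type (19269625 to 19269775 and 19269618 to 19269768), at 89.7 in the double knockout and 89.6 in the wild type (19274255 to 19274405 and 19274246 to 19274396), and at 73.2 in the double knockout and 49.5 in the wild type (19282103 to 19282253 and 19282102 to 19282252). The last of these ranked 33.8 points higher in the double knockout. The other 2 wild-type peaks were weak, at percentiles 22.8 and 3.28.

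Around Trgj1 and Trgc1, the strongest region stood at percentile 87.4 in the double knockout (19311634 to 19311784) and 89.9 in the wild type (19311492 to 19311642). The peaks overlapped by 9 bp only, against a median overlap of 141 bp for all shared pairs. To its left lay 1 double-knockout peak at 19301725 to 19301875 (percentile 49.1), 80 bp from a wild-type peak at 19301956 to 19302106 (percentile 18.9). A further wild-type peak at 19300938 to 19301088 (percentile 16.1) had none within 500 bp.

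In the other cassettes, around Trgc3, Trgc2 and Trgc4, each library had 8 peaks, of which 4 were shared. The strongest, at percentile 82.7 in the double knockout (19392406 to 19392556) and 79.4 in the wild type (19392571 to 19392721), missed each other by 14 bp. Toward the right end of this section the double knockout had 2 peaks, with starts 663 bp apart, at 19431628 to 19431778 and 19432291 to 19432441 (percentiles 73.0 and 71.0), with no wild-type peak within 9 kb. The nearest wild-type peak, at 19422382 to 19422532, was among the weakest of its list, at percentile 0.12. Of the shared regions of the section, that at 19364736 to 19364886 had the largest rank difference in favour of the double knockout, at percentile 67.0 in the double knockout and 50.8 in the wild type (25.5 points).

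The right flank of Tcrg, toward Stard3nl, held 6 peaks in each library, with 5 shared. The strongest stood at percentile 97.4 in the double knockout (19487598 to 19487748) and 97.9 in the wild type (19487602 to 19487752), and differed by -0.03 points in rank. A second, at 19448235 to 19448385 in the double knockout and 19448207 to 19448357 in the wild type, stood at percentile 90.7 in the double knockout and 83.2 in the wild type. Beside it the double knockout had a further peak at 19449092 to 19449242 (percentile 75.9), 734 bp from that wild-type peak. The wild type had 1 peak without a partner there, at 19469690 to 19469840 (percentile 33.9). In the left flank, the strongest wild-type peak, at 19244120 to 19244270 (percentile 68.3), had no double-knockout peak within 6 kb, and the strongest double-knockout peak was shared, at percentile 78.5 in the double knockout and 60.1 in the wild type (19254119 to 19254269).

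Over the whole Tcrg window, 15 of 17 shared regions ranked higher in the double knockout and 2 lower, with a median of 7.58 points. Over all pairs, 53.1% ranked higher in the double knockout and the median was 0.55 points. Of the 17 regions, 4 ranked over 20 points higher, or 23.5% (6.81 to 49.9%). None ranked over 20 points lower, which allows a share of up to 19.5%. The interval of the 23.5% included the 11.3% of all pairs. Among the 12 of middle rank, 33.3% ranked over 20 points higher and none lower, beside 15.5% higher and 16.8% lower over all such pairs.

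**Figure D5:**
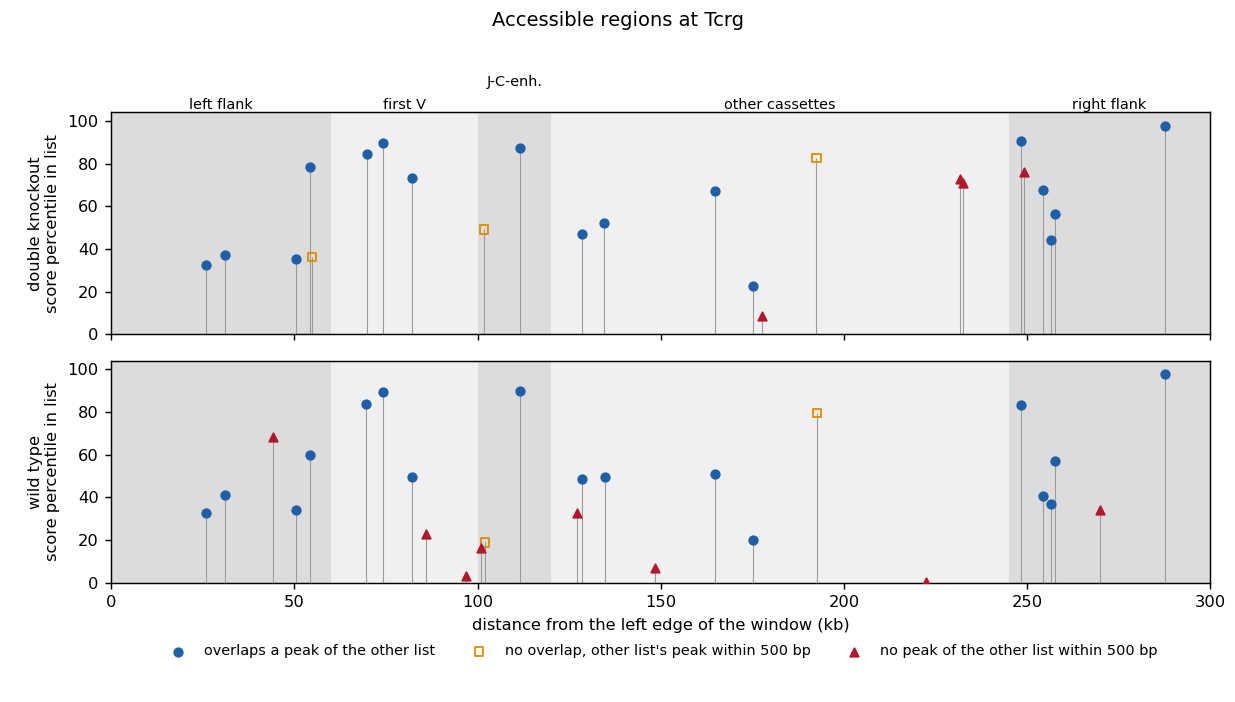
Peaks along the Tcrg window (horizontal axis, distance from its left edge in kb), by the percentile of their score in their own list (vertical axis), in the double knockout (top) and the wild type (bottom), with shading for the sections. The first V genes and the first J, C and enhancer section hold shared regions above percentile 80 in both libraries, and a pair of double-knockout peaks near 232 kb has no wild-type counterpart.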

How the data were processed

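ATAC-seq of sorted fetal ETPs was given as 2 peak lists, 1 per genotype, and grouped by genotype as labelled. Per the submitters' processing notes, the build was mm9 and the tools included bcl2fastq 1.8.4, Bowtie and HOMER, with no roles stated. Transposase shift, duplicate handling, background library and peak threshold are not stated there or in the labels, and the read depth is unknown. Each deposited list gives positions (printed 1-based), a strand and the authors' score, for which no unit is stated, so it was used only as a percentile within its list.

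Peaks were assigned to windows by their centre, called shared at 1 bp of overlap, and otherwise counted as within or beyond 500 bp of the other list. Sections were set at round distances from the right edges of the windows. Positions were not converted between builds, and no mm9 sequence was at hand, so none is printed. Genome densities use the span between the first and last peak of each chromosome over both lists. Peaks were named in full in the joining, constant and enhancer sections, and elsewhere by score percentile (the 3 strongest per list, the 3 strongest without a partner and any in the strongest 10%); others named, including those with large rank differences, were chosen after their values were seen. The windows, sections and measures were chosen with earlier results of these data known. The overlap step was tested on simulated data. Alternatives covered the overlap rule, list length, score threshold, and window and section boundaries. Python 3.11.15 was used with pandas 2.3.3, SciPy 1.17.1, NumPy 2.4.6 and matplotlib 3.10.9.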

Additional observations from a re-analysis of the deposited data

How the results depend on the processing

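No paired analysis was possible because each genotype had a single library, which also leaves no replicate to omit. Of the 15 alternatives for the number of peaks per locus, all stayed within the interval of the value given, which is wide, but 3 passed to the other side of 1: the double-knockout peaks per wild-type peak were 1.5 at Tcrg with both lists at their upper 50%, and 1.04 at Tcrg and 1.18 at Tcra and Tcrd at equal list lengths. At equal list lengths the ratio of the whole lists is itself 1 by construction. At Tcrb the ratio fell to 0.571 with both lists at their upper 50%. Of the shared parts, 42 stayed within their interval and 6 did not. With both lists limited to their upper 50%, 42.9% of the wild-type peaks were shared at Tcrb and 57.1% at Tcra and Tcrd. At equal list lengths, 64.5% of the double-knockout peaks were shared at Tcra and Tcrd. Whole-list shares under these limits are not given for comparison. With peaks up to 2 kb apart counted as shared, an alternative added after the data were seen, 95.5% of the double-knockout and 79.2% of the wild-type peaks were shared at Tcrb, and 87.5% of the double-knockout peaks at Tcrg. Counts of shared regions over 20 points apart in rank stayed within 1.5 times their value in 12 of 12 alternatives, also added later: at Tcra and Tcrd there were 22 higher and 5 lower where at least 50% of both peaks overlapped, and 23 higher and 4 lower at equal list lengths. Of the section counts, 43 stayed within 1.5 times their value and 9 did not. With boundaries 10 kb to the left, the Tcrg left flank held 2 double-knockout and 3 wild-type peaks, its first V section 6 and its first J and C section 1 double-knockout peak, and the alpha J and C section 1 wild-type peak. With boundaries 10 kb to the right, the trypsinogen stretch held 1 double-knockout peak, the Tcrg right flank 3, and the Tcra and Tcrd right flank 2 double-knockout and 3 wild-type peaks. In these settings peaks pass from a section to its neighbour; the cause of the changes in shared parts was not tested. Unknown depth limits the weak peaks most, and a missing weak peak is not shown to be closed chromatin.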

Other observations

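Some peaks of the alpha and delta window came as doublets. Here 10 of 110 double-knockout and 9 of 118 wild-type peaks were followed by another whose start lay within 1 kb, or 9.09% of the double-knockout and 7.63% of the wild-type peaks, beside 9.83% and 7.67% of these whole lists. The spacing varied less than over the whole lists, with quartiles of 584.5 and 647 bp in the double knockout and 638 and 674 bp in the wild type, against 416 and 720 bp over all double-knockout and 435 and 773.8 bp over all wild-type doublets. A total of 8 doublets of the variable section had both members shared. In 5 of them the right member, toward the constant genes, had the higher score in the double knockout, and in 2 of them it did so in the wild type, or 62.5% in the double knockout and 25% in the wild type, beside 49.7% in the double knockout and 51.1% in the wild type over all 2894 such doublets of the genome. In 4 of the 8 the right member was the higher in the double knockout and the left in the wild type, and in 1 the reverse held. Over the whole genome these made up 9.99% and 11.3%. The doublet at 53970615 and 53971221 in the double knockout had percentiles of 69.9 and 80.1 there, and 61.0 and 56.9 in the wild type. That at 54376927 and 54377577 had 10 and 58.5 in the double knockout, and 43.6 and 26.4 in the wild type. The doublet that starts at 53692262 had percentiles of 75.7 and 75.3 in the double knockout and 82.7 and 81.1 in the wild type. The comparison was chosen after the values were seen, rests on 8 doublets and was not tested.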
